A study of Mus musculus with 11 samples.

Results

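The integrated stress response genes described here are 10 genes fixed by name: 5 whose messages are controlled by upstream reading frames (Atf4, Atf5, Ddit3, Ppp1r15a and Ppp1r15b) and 5 targets of the transcription factor Atf4 (Asns, Trib3, Chac1, Sesn2 and Psat1). They were looked up among the 14351 named genes of 11 one-colour Affymetrix arrays that profiled the lungs of Balb/c mice. The 4 groups were total RNA of wild-type lung (3 arrays), total RNA of 4ebp1-/-/4ebp2-/- lung (3 arrays), polysomal RNA of wild-type lung (2 arrays) and polysomal RNA of 4ebp1-/-/4ebp2-/- lung (3 arrays). The double knockout lacks 4E-BP1 and 4E-BP2, proteins that occupy eIF4E, the factor that reads a message's cap, and so restrain initiation. All mice ate a purified diet from 5 weeks of age. Polysomal RNA was pooled from gradient fractions 7 to 10, which hold messages carrying at least 3 ribosomes. The wild-type mice were bought from a breeder and the knockout mice came from another laboratory, so genotype and colony cannot be told apart. The labels used here give no age at collection and do not tie arrays to separate mice. All p-values rest on the scatter among arrays, part of which may be technical.

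The integrated stress response starts when a kinase phosphorylates the initiation factor eIF2, which lowers translation of most messages. Some messages with inhibitory upstream open reading frames, short frames that ribosomes meet before the protein's own start, are an exception. These messages are poorly translated in unstressed cells and better translated when eIF2 is phosphorylated. Atf4 is the best known of them, and its protein then switches on genes for amino acid synthesis, transport and stress control. 4E-BPs act at another step of initiation, and Eif4ebp1 is itself a known Atf4 target.

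Of the 10 genes, 9 had a probe set, 1 each, and Trib3, a pseudokinase that restrains Atf4, was not analysed here. Of these 9, 8 passed the filter on dim probe sets (a log2 value of at least 5 on at least 2 arrays), as did 8085 genes in all. Ppp1r15b, the constitutive partner of the phosphatase that removes phosphate from eIF2, did not pass. Its values of 2.03 to 2.20 log2 lay under the median of all dim probe sets, 2.30 to 2.49, so its message was not measured above that floor.

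The knockout label was checked on Eif4ebp2, with total RNA values of 4.50 to 5.49 log2 in wild type against 2.61 to 3.26 in knockout, and polysomal values of 5.76 to 6.09 against 3.75 to 3.92. Eif4ebp1, the other deleted gene, stayed bright in knockout, at 7.92 to 7.94 against 8.20 to 8.54 in total RNA and 7.05 to 7.36 against 7.78 to 7.93 on polysomes. Where its probes lie relative to the deletion is not known here, so it checks nothing. All 8 lung markers (surfactant proteins, Scgb1a1, Ager, Aqp5 and Cldn18) were detected. The arrays had medians of 4.96 to 5.04 log2, so a difference between polysomal and total RNA is relative to the average message and not an absolute load of ribosomes. Over the 8085 genes this difference had a median of 0.22 in wild type and 0.13 in knockout, and its slope in knockout on wild type was 0.684.

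Of the 8 tested genes of the stress response, Atf5 and Atf4 were called for genotype, Atf4 in a call that most single arrays could end. Atf5 RNA rose more than 3-fold in total RNA and also rose on polysomes. Atf4 rose by less than that in total RNA and did not pass on polysomes. The other 6 genes passed in neither RNA kind. In total RNA 2 of 8 members were called higher and none lower, against 17.2% of all genes higher and 5.97% lower (23.2% in either direction). In polysomal RNA 1 was called higher and none lower, against 8.36% and 6.77% (15.1% in either direction). The members' counts lie near these shares, so the number of calls says nothing particular about the set. A call here is an adjusted p under 0.05 in limma's test, with adjustment over all probe sets tested. Each log2 difference is followed by its standard error (SE) in that fit.

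**Figure D1:**
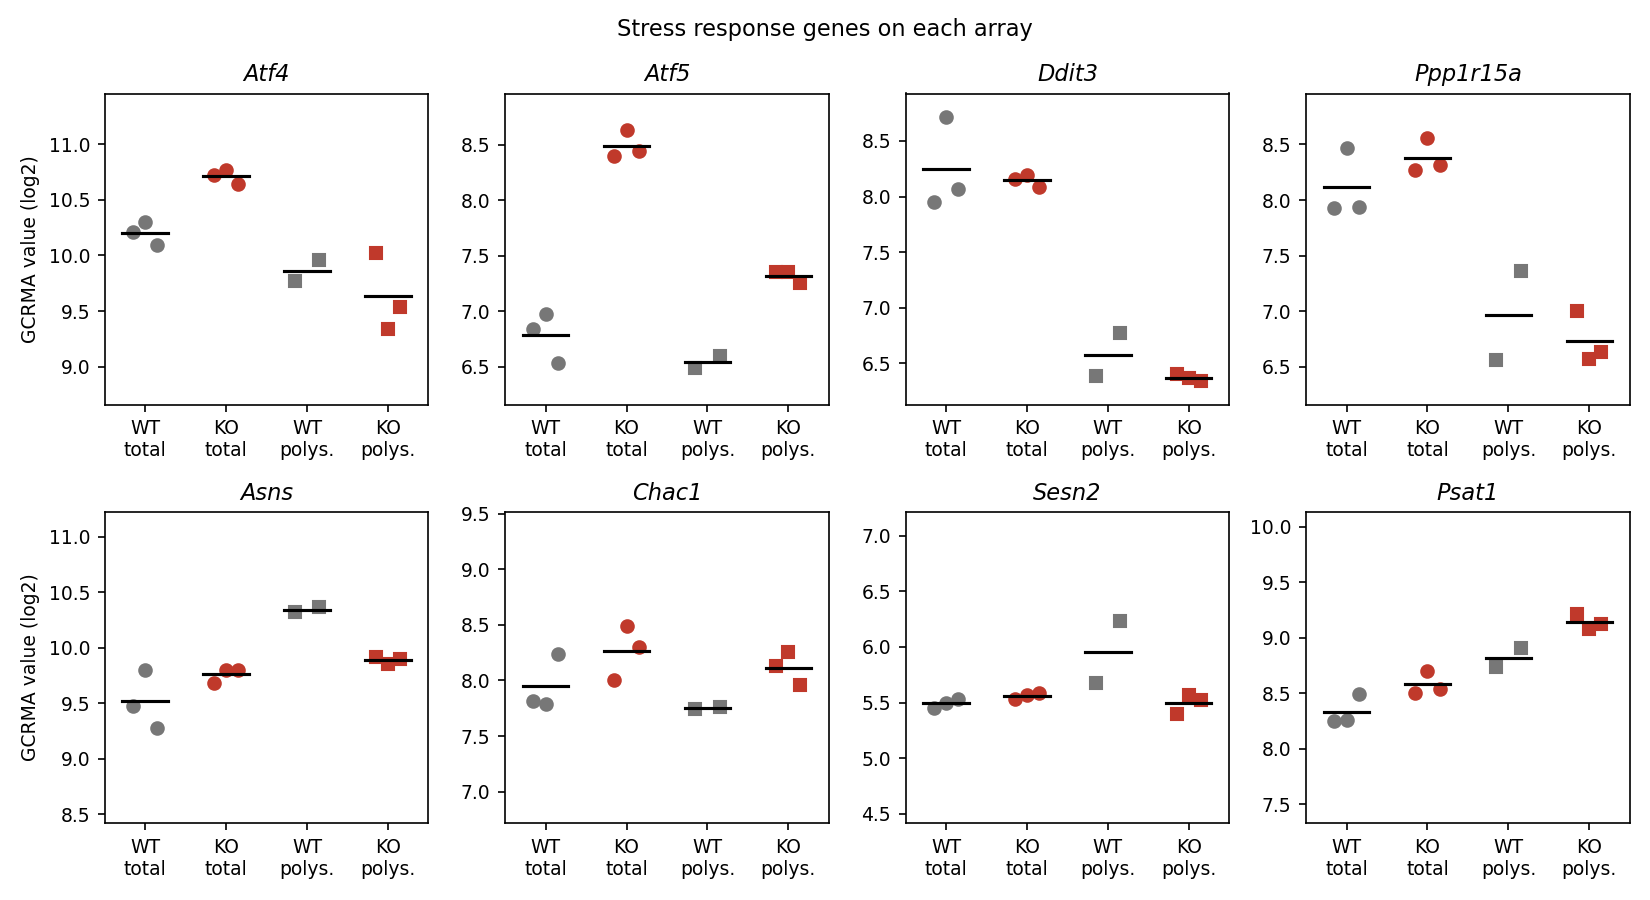
GCRMA values (log2) of the 8 tested genes on every array, by genotype (WT, wild type; KO, double knockout) and RNA kind (total, circles; polysomal, squares), with black bars at the group means and each vertical axis spanning the same number of log2 units. The knockout total arrays of Atf5, 8.40 to 8.63, lie above all other arrays of this gene, while Ddit3 and Ppp1r15a separate by RNA kind and not by genotype.

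Atf5 encodes a bZIP transcription factor related to Atf4, known for the stress response of mitochondria and of the cytosol. In total RNA it stood at 6.84, 6.98 and 6.53 log2 on the wild-type arrays and at 8.40, 8.63 and 8.44 on the knockout arrays. In polysomal RNA it stood at 6.49 and 6.60 in wild type and at 7.35, 7.35 and 7.25 in knockout, where the first and second arrays hold an identical deposited value. The genotypes did not overlap in either RNA kind. The rise was 1.71 in total RNA (SE 0.12, 3.26-fold, n = 3 and 3, limma adjusted p = 0.0001), and 54 of the 8085 genes had a larger difference. On polysomes it was 0.78 (1.71-fold, SE 0.13, limma adjusted p = 0.0058, with 2 arrays against 3). Without any 1 array these rises ran from 1.58 to 1.80 and from 0.72 to 0.83, and both remained called. Within the replicate sets given by the labels, the total difference was 1.49 in set A and 2.0 in set B, and the polysomal one 0.86 in set B and 0.66 in set C. These rest on 1 or 2 arrays per genotype and were not tested.

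Atf4 encodes the central transcription factor of the response. Its total RNA values were 10.21, 10.30 and 10.09 log2 in wild type and 10.73, 10.77 and 10.64 in knockout. Its polysomal values were 9.77 and 9.96 in wild type and 10.02, 9.34 and 9.53 in knockout. The genotypes were apart in total RNA and overlapped on polysomes, where knockout replicate 1 was the highest array and the other two knockout arrays the lowest. The total RNA rise was 0.51 (SE 0.16, 1.43-fold, limma adjusted p = 0.042). The polysomal difference was -0.23 (SE 0.18, limma adjusted p = 0.42), and ran from -0.43 without knockout polysomal replicate 1 to -0.088 without replicate 2, never called. Without wild-type polysomal replicate 2 it was -0.14. Within sets it was -0.43 in set B and -0.42 in set C, and the total RNA difference was 0.47 in set A and 0.61 in set B, untested. Leaving out any of the 6 total arrays, either wild-type polysomal array or knockout polysomal replicate 3 ended the total RNA call, at differences of 0.46 to 0.56. The adjusted p of this difference was 0.0095 to 0.13 over all alternatives.

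In bulk lung, a gain of RNA per cell and a gain of the cells that hold it cannot be told apart. Markers of several cell types moved with Atf5 and Atf4 in total RNA. Over all genes 17.2% were called higher and 5.97% lower there, and 8.36% and 6.77% on polysomes. Of 8 lung epithelial markers 3 rose (Aqp5, Ager and Sftpd) and none fell, with a summed linear signal of 191700 to 244400 in wild type and 271300 to 274500 in knockout. Heart muscle markers rose in 3 of 6 cases (summed signal 1771 to 2976 against 3007 to 4084), and neutrophil markers in 2 of 4, Lcn2 and Ltf (5857 to 29070 against 12060 to 14990). The neutrophil markers S100a8 (-0.30) and S100a9 (-0.07) lay below 0 in total RNA and were not called. Ngp, Camp and Mpo, also of neutrophils, were below 5 log2 on every array. Macrophage markers rose in 2 of 5 cases and fell in 3, with a median difference of -0.58. Their summed signal, in which bright genes weigh most, was 34990 to 53850 against 58650 to 68510. Their mean log2 value overlapped, at 9.84 to 10.18 against 9.81 to 10.00. Alas2 of red cell precursors also rose, 1 of 2 tested (240.1 to 345.2 against 753.2 to 1313). The plasma cell gene Jchain fell, 1 of 4 (2205 to 4277 against 2020 to 2504), a call lost without any of 10 of the 11 arrays, and none of 3 T cell markers passed (161.3 to 201.6 against 143.4 to 225.8). On polysomes no lung marker passed (summed signal 325100 to 339200 in wild type and 316000 to 333100 in knockout). There Alas2 (1.77), the heart gene Tnnc1 (1.06), Lcn2 (0.56) and the plasma cell regulator Prdm1 (1.48) rose. The macrophage genes Chil3 (-0.89), Ear1 (-0.80) and Itgax (-0.59) and the plasma cell genes Sdc1 (-0.60) and Jchain (-2.32) fell. Of these polysomal calls, those of Alas2 and Sdc1 alone remained without any 1 array. The part of these cells in the Atf5 and Atf4 results was not tested.

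**Figure D2:**
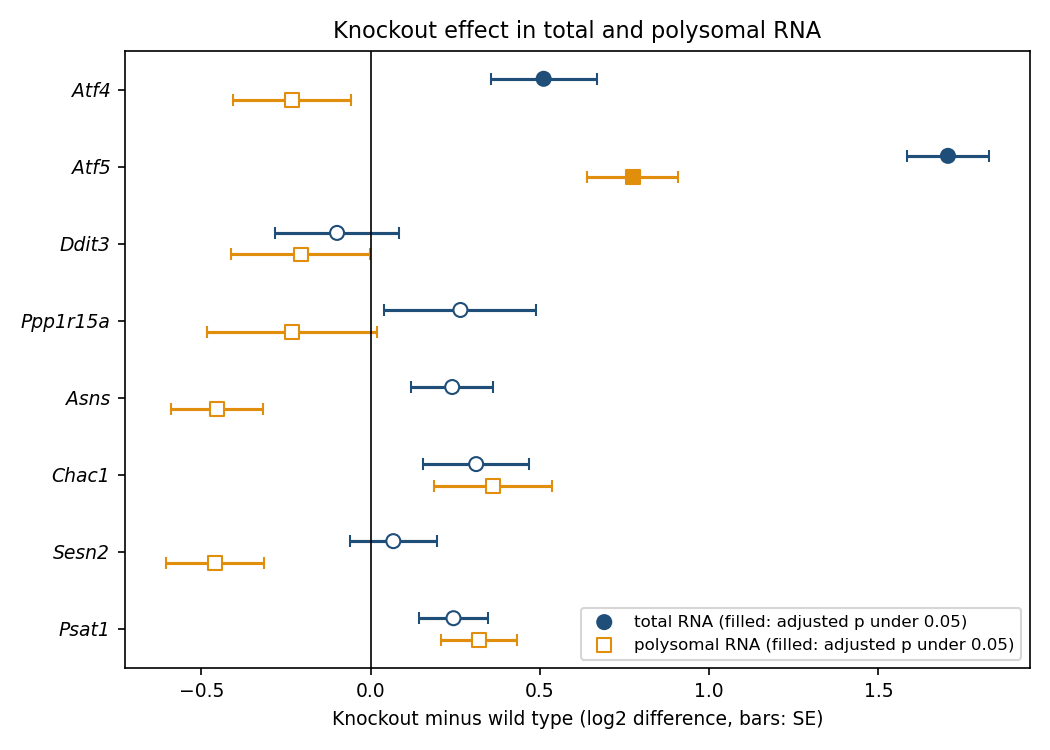
Knockout minus wild type (log2 difference, bars are the SE of the limma fit) in total RNA (circles) and polysomal RNA (squares) for the 8 tested genes, with filled symbols for an adjusted p under 0.05. Atf5 lies furthest from 0 in both RNA kinds, and Atf4, Asns, Sesn2 and Ppp1r15a lie above 0 in total RNA and below 0 on polysomes.

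Ddit3 and Ppp1r15a were set by RNA kind. Ddit3 encodes CHOP, a transcription factor of prolonged stress. Its total RNA values were 7.95, 8.72 and 8.06 log2 in wild type and 8.16, 8.19 and 8.09 in knockout, and its polysomal values 6.38 and 6.77 against 6.40, 6.37 and 6.34. Every polysomal array lay below every total array, and the genotypes overlapped. Its knockout difference was -0.10 for total RNA (95% interval -0.51 to 0.31, SE 0.18, limma adjusted p = 0.74) and -0.21 on polysomes (SE 0.20, interval -0.67 to 0.25, adjusted p = 0.55). Polysomal minus total RNA was -1.67 in wild type (SE 0.20, limma adjusted p = 4.3e-05) and -1.78 in knockout (SE 0.18, adjusted p = 1.9e-05), a more than 3-fold deficit in both genotypes. Only 6.78% of genes lay lower in wild type, and 2.8% in knockout.

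Ppp1r15a encodes GADD34, the stress-induced subunit that directs a phosphatase to eIF2 and so ends the response. It stood at 7.93, 8.47 and 7.94 log2 in wild-type and at 8.27, 8.56 and 8.31 in knockout total RNA. On polysomes it stood at 6.56 and 7.37 in wild type and at 7.00, 6.57 and 6.63 in knockout. As with Ddit3, the RNA kinds were apart and the genotypes overlapped. Polysomal minus total RNA was -1.15 in wild type (SE 0.25, limma adjusted p = 0.0021) and -1.65 in knockout (SE 0.22, adjusted p = 0.00012). The wild-type value was -0.75 without wild-type polysomal replicate 1 and -1.55 without replicate 2, both called, but the call was lost with a block for the set letters within each RNA kind (-0.77, limma adjusted p = 0.14). Its knockout difference was 0.27 for total RNA (95% interval -0.24 to 0.77, SE 0.22, limma adjusted p = 0.43) and -0.23 on polysomes (interval -0.79 to 0.33, SE 0.25, adjusted p = 0.59).

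Single arrays moved both genes together. Wild-type total replicate 2 held the highest Ddit3 value of all arrays, 8.72, and a Ppp1r15a value of 8.47 against 7.93 and 7.94 on the other wild-type total arrays. Knockout total replicate 2 was higher still for Ppp1r15a, at 8.56. Wild-type polysomal replicate 2 was the highest polysomal array for both genes. The same 2 arrays were highest of their RNA kind for the heat shock genes Hspa1a, Hsph1 and Dnajb1, which code for chaperones and a co-chaperone. Hsph1 was 11.07 on wild-type total replicate 2 against 10.26 and 9.54 on the others, and 12.20 on wild-type polysomal replicate 2 against 11.48. Replicate numbers do not tie total to polysomal arrays here, and these 2 arrays carry different set letters, A and C. Other tested genes of the response to dissection and handling did not share this. Jun was also highest of its RNA kind on both arrays (11.94 and 12.31), but Egr1 (10.86 and 9.71) and Zfp36 (8.82 and 10.81) were lowest. Fos, Junb, Ier2, Ier3 and Dusp1 were highest on neither. The part of a heat shock response, or of tissue handling, in the Ddit3 and Ppp1r15a values was not tested.

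**Figure D3:**
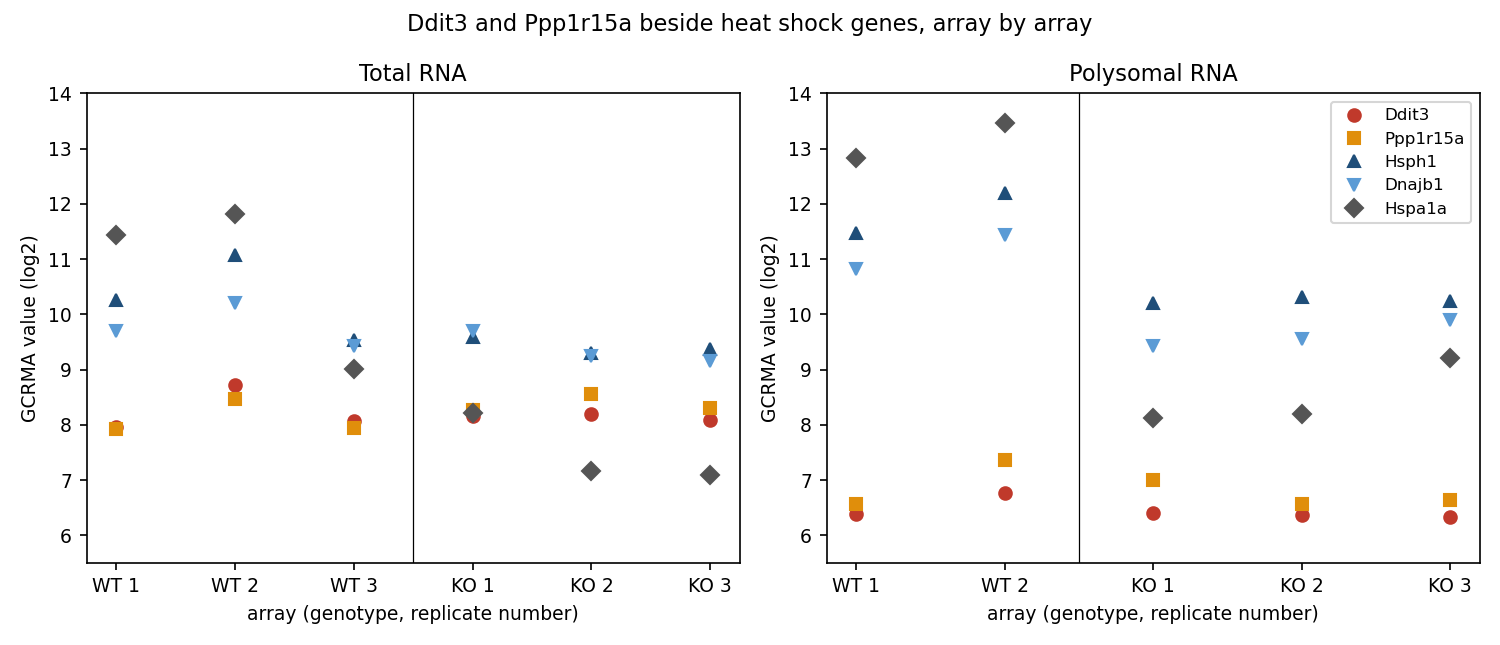
GCRMA values (log2) of Ddit3 and Ppp1r15a beside the heat shock genes Hsph1, Dnajb1 and Hspa1a, array by array, in total RNA (left) and polysomal RNA (right), with wild-type arrays left of the vertical line. Wild-type replicate 2 holds the highest Ddit3 and Hsph1 value in each panel, 8.72 and 11.07 in total RNA.

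All 4 tested messages with upstream frames were called lower on polysomes than in total RNA in knockout lung. In wild type 2 of the 4 were called lower, Ddit3 and Ppp1r15a. Atf4 and Atf5 also lay below 0 there, uncalled. The wild-type polysomal arrays of Atf4 were all below its wild-type total arrays, while those of Atf5 overlapped. Over all 8 members 5 were called in each genotype, 3 higher and 2 lower in wild type and 1 higher and 4 lower in knockout, against 72.4% and 65.2% of all genes in either direction. Of all genes, 27.9% were called lower in wild type and 25.7% in knockout. The median over the 4 was -0.74 in wild type and -1.41 in knockout, against 0.22 and 0.13 for all genes. For Atf4 the difference was -0.34 in wild type (SE 0.18, limma adjusted p = 0.11) and -1.08 in knockout (SE 0.16, adjusted p = 0.00018, 2.12-fold). For Atf5 it was -0.24 in wild type (SE 0.13, limma adjusted p = 0.13) and -1.17 in knockout (SE 0.12, adjusted p = 1.8e-05, 2.25-fold). Among all genes, 29.3% lay below Atf4 in wild type and 9.3% in knockout. For Atf5 these shares were 32.6% and 8.25%. The Atf5 value in wild type was called when wild-type total replicate 3 was left out, and the Atf4 value when knockout polysomal replicate 1 was left out, at -0.36 and -0.34. Quantile normalization also called the Atf4 value, at -0.52, while a block for the set letters within each RNA kind turned it to 0.21 (limma adjusted p = 0.30).

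The interaction, the knockout effect on polysomal RNA minus that on total RNA, tests whether this shift differed between genotypes. It was called lower for 3 of 8 members and higher for none, against 14.2% and 8.06% of all genes (22.3% in either direction). Atf5 was at -0.93 (SE 0.18, limma adjusted p = 0.0091), Atf4 at -0.74 (SE 0.23, adjusted p = 0.049) and Asns at -0.69 (SE 0.18, adjusted p = 0.026). Ppp1r15a was at -0.50 (SE 0.34, limma adjusted p = 0.32) and Ddit3 at -0.11 (SE 0.27, adjusted p = 0.81). Some tissue and cell type markers had called interactions of the same sign. These were 3 of 8 lung markers (Aqp5 -0.85, Sftpd -0.58 and Ager -0.42) and 2 of 5 of macrophages (Itgax -1.13 and Lyz2 -0.95). So were 2 of 4 of neutrophils (Lcn2 -0.84 and Ltf -1.10) and 1 of 4 of plasma cells (Sdc1 -0.83). None of 6 heart muscle, 3 T cell and 2 red cell precursor markers was called, and no marker was called higher. Uncalled markers above 0 included S100a8 (1.45) and S100a9 (0.68) of neutrophils, Siglecf (0.40) of macrophages and Prdm1 (1.03) of plasma cells. The part of these cells in the members' interactions was not tested. The Atf5 call remained without any 1 array, at -0.81 to -1.03. The Atf4 call was lost when any array but knockout polysomal replicate 1 was left out, at -0.60 to -0.84, with no filter (limma adjusted p = 0.089) and with equal array medians (adjusted p = 0.056), and its adjusted p was 0.010 to 0.15 over all alternatives. In the members with upstream frames the total RNA difference was above 0 for 3 of 4, so the lower interaction of Atf5 and Atf4 carried a rise in total RNA that was smaller or not seen on polysomes.

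Most genes with a polysomal minus total difference below 0 in wild type had an interaction above 0. Of 3448 genes with a wild-type difference below 0, 30.4% had an interaction below 0 and 1.54% were called lower, with a median of 0.19. All 4 messages with upstream frames belong to those 3448 genes and had an interaction below 0. For Ddit3 that sign turned to 0.039 without wild-type total replicate 1 and to 0.085 without wild-type polysomal replicate 2, and for Atf4 the wild-type difference turned under the block just given. The interaction is the knockout difference minus this same wild-type difference. Scatter on the wild-type arrays therefore pushes genes picked for a low wild-type value toward an interaction above 0. These shares cannot tell that from a change by genotype. Being chosen by name, the 4 genes are described beside these shares and not tested against them.

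**Figure D4:**
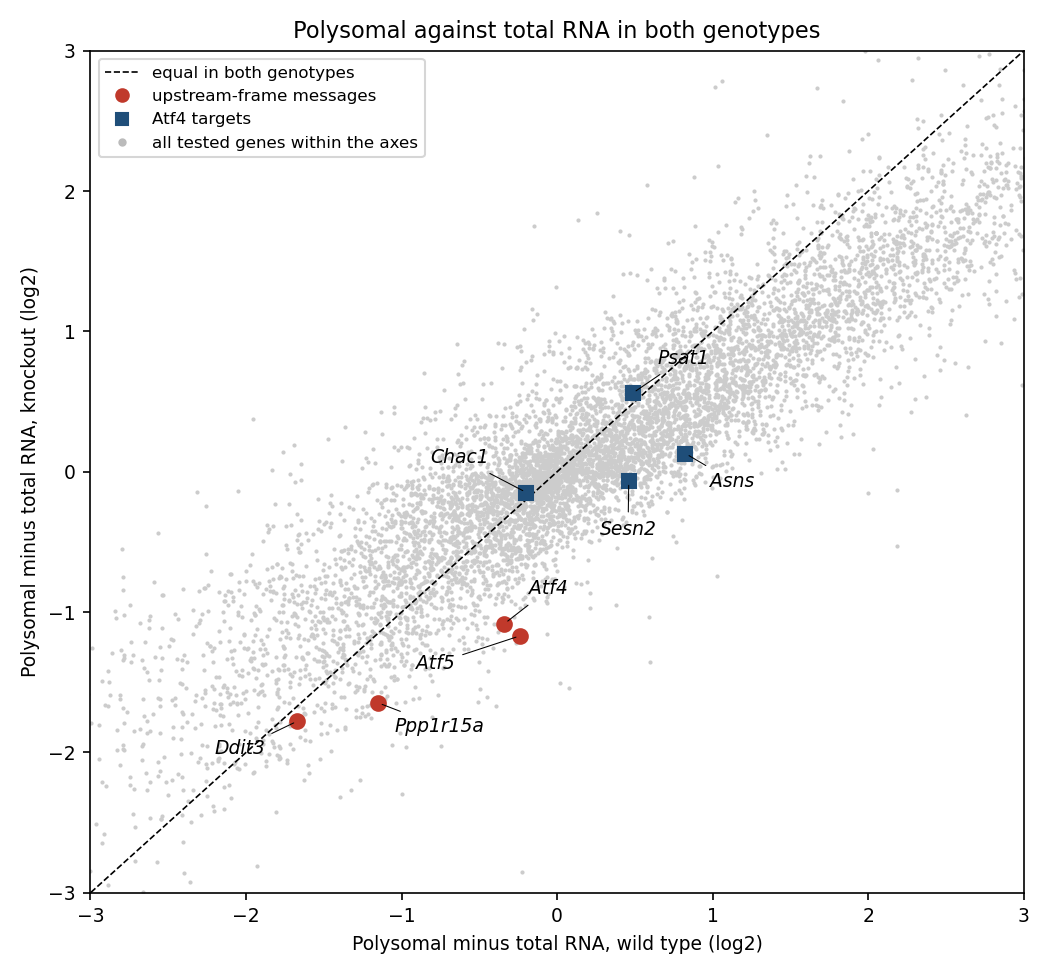
Polysomal minus total RNA (log2) in wild type (horizontal) and knockout (vertical) for the tested genes that fall within the axes (grey), the 4 messages with upstream frames (red circles) and the 4 Atf4 targets (blue squares); the dashed line marks equal values. Atf4 and Atf5 lie below the line at -1.08 and -1.17 in knockout, and Psat1 lies close to it at 0.49 and 0.56.

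None of the 4 tested Atf4 targets was called for genotype in total or in polysomal RNA, against 23.2% and 15.1% of all genes. All 4 lay above 0 in total RNA, where the median over all genes was also above 0. At an unadjusted p under 0.05, 1 passed in total RNA (Psat1) and 3 passed on polysomes (Asns, Sesn2 and Psat1), in both directions. The share of all genes at that unadjusted p was not computed, so these counts have no background. Their median knockout difference was 0.24 in total RNA and -0.07 on polysomes, against 0.09 and -0.01 over all genes. On polysomes relative to total RNA 3 of the 4 were called higher in wild type (44.5% of all genes) and 1 in knockout (39.5%).

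Asns encodes asparagine synthetase. Its amino acid response element is the textbook Atf4 site, and the core TGATGNAA (8 bases, N any base, searched on both strands) was found in the 300-base RefSeq promoter windows (250 bases before to 50 after the start, GRCm38.p6) of Asns, Chac1 and Trib3. Of all 32851 such windows 3.97% held it, and 0.895% held the form TGATGCAA that overlaps it. Promoter windows were found for 9 of the 10 genes, Ppp1r15b being the exception. The matches of the measured genes are given here with 11 bases on each side, since these targets can be set beside their factor's RNA. Capitals mark the match, and the sequence runs along the gene's strand. For Asns it lies at chr6:7693214-7693243 on the minus strand, with its first capital 23 bases before the start. For Chac1 it lies at chr2:119351038-119351067 on the plus strand, 193 bases before the start, with the motif on the other strand.
Asns: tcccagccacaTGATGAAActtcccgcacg
Chac1: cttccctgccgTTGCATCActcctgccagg
A match is a description and not evidence of binding in these lungs.

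Asns stood at 9.47, 9.80 and 9.28 log2 in wild-type and 9.68, 9.80 and 9.80 in knockout total RNA, and at 10.32 and 10.36 against 9.92, 9.85 and 9.90 on polysomes. The genotypes overlapped in total RNA and were apart on polysomes, where every knockout array was lower. The total RNA difference was 0.24 (SE 0.12, limma adjusted p = 0.18), and 0.38 and called without wild-type total replicate 2. The polysomal difference of -0.45 (SE 0.14) missed the threshold (limma adjusted p = 0.051, and 0.016 to 0.19 over the alternatives), and was called without wild-type total replicate 2 or 3 at the same size. Polysomal minus total RNA was 0.83 in wild type (SE 0.14, limma adjusted p = 0.00033) and 0.13 in knockout (SE 0.12, adjusted p = 0.37), which gives the interaction above. That interaction call was lost without wild-type total replicate 1, knockout total replicate 2 or 3, either wild-type polysomal array or knockout polysomal replicate 2, at -0.67 to -0.71.

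Chac1 encodes an enzyme that degrades glutathione and is among the most stress-responsive Atf4 targets. It stood at 7.82, 7.79 and 8.24 log2 in wild-type and 8.0, 8.49 and 8.30 in knockout total RNA. On polysomes it stood at 7.75 and 7.76 in wild type and at 8.13, 8.26 and 7.96 in knockout. Every knockout polysomal array was above both wild-type ones, while the total arrays overlapped. The differences were 0.31 for total RNA (SE 0.16, limma adjusted p = 0.18) and 0.36 on polysomes (SE 0.17, adjusted p = 0.20). Without wild-type total replicate 3, the highest wild-type array, the total difference was 0.46 and called. Polysomal minus total RNA was -0.20 in wild type and -0.15 in knockout, neither called.

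Psat1 encodes phosphoserine aminotransferase of serine synthesis. It stood at 8.25, 8.26 and 8.50 log2 in wild-type and 8.51, 8.70 and 8.54 in knockout total RNA, and at 8.74 and 8.90 against 9.22, 9.08 and 9.13 on polysomes. Knockout arrays lay above wild-type ones in both RNA kinds, though only narrowly in total RNA. The differences were 0.25 (SE 0.10, 95% interval 0.02 to 0.47, limma adjusted p = 0.11) and 0.32 (SE 0.11, interval 0.07 to 0.57, adjusted p = 0.086). Both were called without wild-type total replicate 3, at 0.33 and 0.32. Psat1 was the member called higher on polysomes than in total RNA in both genotypes, at 0.49 in wild type (SE 0.11, limma adjusted p = 0.0030) and 0.56 in knockout (SE 0.10, adjusted p = 0.00078).

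Sesn2 encodes sestrin 2, a stress-induced inhibitor of mTORC1. Its total RNA values of 5.45, 5.5 and 5.53 log2 in wild type and 5.53, 5.57 and 5.58 in knockout lie close to the filter's minimum. On polysomes it stood at 5.67 and 6.23 in wild type and at 5.39, 5.56 and 5.52 in knockout. The knockout polysomal arrays were lower than both wild-type ones, which themselves differed by more than the genotypes' total RNA values. The polysomal difference was -0.46 (SE 0.14, limma adjusted p = 0.060), and it rested on which wild-type polysomal array was kept: without replicate 1 it was -0.74 and called, without replicate 2 it was -0.18 and not called. The wild-type polysomal excess over total RNA was 0.46 (SE 0.14, limma adjusted p = 0.015), and 0.18 and not called without wild-type polysomal replicate 2. This call was also lost with a block for the set letters, within each RNA kind (0.33, limma adjusted p = 0.27) or over both (0.31, adjusted p = 0.11), and when only the groups compared were fitted (0.46, adjusted p = 0.079).

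Of 41 further known Atf4 targets, 26 were tested. In total RNA 3 rose, 1 fell and 22 did not pass, against 17.2% of all genes higher and 5.97% lower, with a median of 0.16. Aars, alanyl-tRNA synthetase, rose by 1.0 (SE 0.17, limma adjusted p = 0.0039) and Psph, the enzyme after Psat1 in serine synthesis, by 0.80 (SE 0.10, adjusted p = 0.0010). Sars, seryl-tRNA synthetase, rose by 0.29 (named after its value was seen). The gene that fell was Eif4ebp1, one of the 2 deleted genes (-0.40, SE 0.11). On polysomes 7 fell, 1 rose and 18 did not pass, against 6.77% lower and 8.36% higher over all genes, with a median of -0.17. Slc3a2, a chain of amino acid transporters, fell by 0.81 (SE 0.11, limma adjusted p = 0.0023), Cebpb, a transcription factor that pairs with Atf4, by 0.68 (SE 0.09, adjusted p = 0.0026), and Eif4ebp1 by 0.67. Nupr1, a stress-induced chromatin protein, rose by 0.85 (named after its value was seen). In wild type Slc3a2 was 2.41 and Cebpb 0.72 higher on polysomes than in total RNA, so these falls ran toward the total RNA level. Those of Cth, Sars and Wars ran the same way, and those of Eif4ebp1 and Jdp2 ran away from it. Polysomal minus total RNA was -0.48 for Eif4ebp1 and -1.52 for Jdp2 in wild type, and -0.74 and -2.05 in knockout. Neither had a called interaction (Cth, Wars and Jdp2 were named after their values were seen). The interaction was called lower for 6 and higher for 1 (14.2% and 8.06% of all genes). The latter was Cebpg (0.50, named after its value was seen). Among the lower were Aars at -1.26 (SE 0.25), Psph at -0.75 (SE 0.14) and Sars at -0.65 (SE 0.13). Eif4ebp1 calls were lost without any of 5 arrays in total RNA and without wild-type polysomal replicate 2 on polysomes.

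Other messages with known regulatory upstream frames were spread in both directions. Of 15 listed, 9 were tested. On polysomes relative to total RNA 3 were called higher and 4 lower in wild type, against 44.5% and 27.9% of all genes, with a median of 0.17. In knockout 2 were higher and 3 lower, against 39.5% and 25.7%, with a median of -0.10. Those lower in both genotypes were Mdm2, the ubiquitin ligase of p53, Hoxa3 and Ifrd1, and those higher in both were Eprs and Cebpa (all named after their values were seen). By genotype, 2 of 9 rose in total RNA (17.2% of all genes): Slc35a4 (0.45, SE 0.13) and Mief1 (0.40, SE 0.13), a mitochondrial fission factor. On polysomes Azin1, an inhibitor of antizyme, rose by 0.54 (SE 0.09, limma adjusted p = 0.0054) and Cebpb fell. In the interaction Azin1 (0.50, SE 0.12) and Ifrd1 (0.65, SE 0.20) were called higher and Cebpb (-0.61, SE 0.13) lower. Cebpb and Eprs stand in this list and among the Atf4 targets. The calls for Mief1 and Ifrd1 were lost without any of 9 and 10 of the 11 arrays, for Slc35a4 without any of 4, and the Azin1 interaction without wild-type polysomal replicate 2.

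Of 19 genes of the eIF2 machinery 13 were tested, among them 2 of the 4 eIF2 kinases, Eif2ak1 and Eif2ak4. In total RNA Eif2b5, the catalytic subunit of the exchange factor eIF2B, rose by 0.80 (SE 0.18, limma adjusted p = 0.013), and Eif2a, an alternative initiation factor, fell by 0.54 (SE 0.14, adjusted p = 0.022). On polysomes Denr, which helps ribosomes restart after an upstream frame, rose by 0.78 (SE 0.14, limma adjusted p = 0.0079) and the eIF2 subunit Eif2s2 by 0.54 (SE 0.13, adjusted p = 0.020). The heme-regulated kinase Eif2ak1 fell by 0.53 (SE 0.14, limma adjusted p = 0.029), as did Eif2b2 (0.50, named after its value was seen). So 2 of 13 were called in total RNA and 4 of 13 on polysomes, against 23.2% and 15.1% of all genes in either direction, and the remaining 11 and 9 did not pass. In the interaction 5 of 13 were called, against 22.3%. Denr (0.85, SE 0.19), Eif2s2 (0.72, SE 0.17) and Eif2a (0.77) were higher and Eif2d (-0.57, SE 0.15) and Eif2b5 (-0.96) lower in the interaction (Eif2a and Eif2b5 named after their values were seen). The polysomal calls were lost for Denr without wild-type polysomal replicate 2 (its interaction too), for Eif2s2 without any of 4 arrays and for Eif2ak1 without any of 3. That for Eif2a in total RNA was lost without any of 3, and the Eif2d interaction without any of 7.

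The other arms of the unfolded protein response, which share the trigger of misfolded protein in the endoplasmic reticulum, had 16 of 20 listed genes tested. In total RNA the chaperones Calr (0.68, SE 0.11) and Hsp90b1 (0.79, SE 0.20) and the disulfide isomerase Pdia6 (0.55, SE 0.12) rose, Pdia4 fell (-0.67, named after its value was seen) and 12 did not pass. These 4 of 16 lie near the 23.2% of all genes called in either direction. On polysomes limma called none of the 16, against 15.1% of all genes. An unadjusted p under 0.05 was held by 4, a count whose share over all genes was not computed. The smallest p there was that of Herpud1, at -0.85 (SE 0.26, limma adjusted p = 0.053). In the interaction Calr was called lower (-0.68, SE 0.17) and 15 were not called, against 22.3% of all genes called in either direction. Of 11 tested genes of the response to dissection and handling, Ier2 (1.30, SE 0.22) and Zfp36 (0.60, SE 0.11) rose in total RNA and Hspa1a fell (-3.27, SE 0.67). The other 8 did not pass, and of all genes 23.2% were called in either direction. On polysomes Hspa1a (-4.64, SE 0.74), Dnajb1 (-1.50, SE 0.27) and Hsph1 (-1.59, SE 0.36) fell and 8 did not pass, against 15.1% of all genes called. In the interaction Ier2 was called, at -1.24 (SE 0.32), and 10 were not, against 22.3% of all genes called. Some of these calls were lost without single arrays: Hsp90b1 and the Calr interaction without any of 3, Pdia6 without knockout total replicate 2, Ier2's interaction without any of 5, Dnajb1 without wild-type polysomal replicate 2, and Hsph1 without that array or knockout polysomal replicate 1.

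Genes with the most similar pattern were named by Pearson's r over the 11 arrays, with the other members left out of the ranking. This is a description in which the 2 RNA kinds and genotypes set most of the likeness. For Atf4 they were Ctbp1 (r = 0.98), Prmt2 (0.97) and Anapc5 (0.96). For Atf5 they were Bpnt2 (r = 0.95), Atp5k (0.95) and Prelid1 (0.94), each with a smaller total RNA difference (0.89, 0.86 and 0.93) than the 1.71 of Atf5. For Ddit3 they were Carm1, Ppp2r2d and Get1 (r = 0.99, 0.99 and 0.98), and for Ppp1r15a Nfatc1, Exoc8 and Tox4 (0.98 each).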

How the data were processed

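The deposited log2 values, 1 per probe set and array, were made by the authors with GCRMA per the submitters' processing notes (version not given in the sources used here). GCRMA corrects background, normalizes and summarises probes. That they are log2 was judged by their range, 0.73 to 16.7. Labelling started from 100 ng of RNA and used 2 rounds of amplification, per the labels' protocols. For arrays, their number limits the precision.

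Of 26180 probe sets, named by RefSeq accession, 15228 matched 1 gene in the RefSeq table of GRCm38.p6, and a gene was its highest-mean probe set. limma 3.58.1 (R 4.3.3) fitted 1 mean per group to 13802 probe sets over all 11 arrays (7 residual degrees of freedom, prior 2.67), with two-sided tests and Benjamini-Hochberg adjustment at 0.05. All adjusted p-values are from this fit. The fit was tested on simulated data. Members and lists were chosen with earlier results of these data known. Named from each list were up to 3 called genes by smallest p per genotype contrast, otherwise the smallest p as values. Also named were 3 genes of like pattern, members left out, per tested upstream-frame gene. Alternatives were filters, a trend, quantile normalization, equal medians, blocks by set letter, other fits and leaving out each array. The set letters, which the labels do not explain, were not taken as pairs. Between genotypes within an RNA kind, deviations from group means correlated over genes at -0.07 to 0.09 for same-letter arrays. For arrays of different letters the range was -0.09 to 0.06. Whether a letter ties total to polysomal arrays was not checked, so these correlations cannot exclude pairing. Figures used matplotlib 3.10.9 in Python 3.11.15.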

Additional observations from a re-analysis of the deposited data

Results flagged for a closer look

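For 3 of the 8 tested members the knockout effect differed between the 2 RNA kinds by limma's interaction test. The polysomal effect minus the total RNA effect was -0.93 for Atf5 (adjusted p = 0.0091), -0.74 for Atf4 (adjusted p = 0.049) and -0.69 for Asns (adjusted p = 0.026). For Atf5 both effects were rises, of 1.71 in total RNA and 0.78 on polysomes. For Atf4 and Asns the effect was above 0 in total RNA (0.51 and 0.24) and below 0 on polysomes (-0.23 and -0.45). Of all genes 14.2% were called lower in this test. The Atf4 call was lost in 12 of 20 alternatives, among them no filter on low values (adjusted p = 0.089), equal array medians (adjusted p = 0.056) and 10 of the 11 fits without 1 array. The Asns call was lost in 6 of those 11 fits and with a block for the set letters within each RNA kind.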

How the results depend on the processing

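Under every alternative run, Atf5 remained called in total RNA, on polysomes and in the interaction, as did Atf4, Atf5, Ddit3, Ppp1r15a and Psat1 for polysomal minus total RNA in knockout. Testing all probe sets called 4216 of 14351 genes in total RNA (1561 higher, 2655 lower) in place of 1876 of 8085 (1393 higher, 483 lower), so the balance turned. For polysomal minus total RNA in wild type it called 10360 (3875 higher, 6485 lower) in place of 5853 (3595 higher, 2258 lower). The dim probe sets so added had medians of 2.43 to 2.49 on wild-type total arrays. On knockout total arrays these were 2.34 to 2.39, and on wild-type polysomal arrays 2.33 to 2.35. Ppp1r15b, not measured above that floor, was called lower in knockout total RNA in this way, at -0.08 (limma adjusted p = 0.025). Testing all probe sets also ended the Atf4 interaction call, as did equal array medians (-0.72). Members called on polysomes were 2 in place of 1 with a moderation trend, quantile normalization, equal array medians or only the groups compared, since Asns passed. Fitting only the groups compared called 682 genes on polysomes in place of 1223.

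A replicate block for the set letters, fitted separately in each RNA kind, called 776 genes on polysomes and 1178 in place of 1803 in the interaction. Under this block 3 members in place of 5 passed for polysomal minus total RNA in wild type, with Ppp1r15a at -0.77 and Sesn2 at 0.33 lost. Atf4 turned to 0.21 there and Chac1 to 0.14 in knockout, and the Asns interaction call was lost at -0.75. The causes were not tested.

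Leaving out each array gave 964 to 2163 genes called in total RNA, 619 to 1644 on polysomes and 1068 to 2087 in the interaction, with 1 to 3 members called in each. For total RNA the fewest genes came without knockout total replicate 2, and for polysomes and the interaction without wild-type polysomal replicate 2. The sign of an uncalled difference turned for Ddit3 in total RNA (-0.25 to 0.14) and in the interaction (-0.34 to 0.085), for Ppp1r15a on polysomes (-0.63 to 0.17), and in the interaction for Chac1 (-0.10 to 0.16) and Psat1 (-0.0090 to 0.16). Each member had 1 probe set, so another probe set per gene could not change it, and Sesn2 had no value under the stricter filter. The 11 arrays, with 2 in wild-type polysomal RNA, limit what could be called.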
